A study of Mus musculus with 9 samples.

Results

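Glycolysis and the citric acid cycle were followed in whole mouse skin through 36 genes. They were chosen by name and read through the probe sets, groups of short oligonucleotides, that the annotation of the array assigns to them. The set holds 18 genes of glucose uptake and glycolysis, from the glucose transporter Slc2a1 to the lactate dehydrogenases, and 18 genes of pyruvate oxidation and the citric acid cycle, from the pyruvate dehydrogenase subunits to malate dehydrogenase. Of these, 34 have a probe set on the array, although Gapdh has control sets only. Outside the control sets, the annotation names 8251 genes on the array. The skin came from 5 mice without Cd1d (Cd1d -/-, called knockout 1 to 5) and from 4 wild-type mice (Cd1d +/+, called wild type 1 to 4). All 9 mice were inbred, on the C57BL/6 background, had not been exposed to UVB, and are described as matched for age and sex, with no age given in the labels used here. CD1d presents lipids to natural killer T cells, and the series asks about its part in the skin's response to ultraviolet light, so this comparison concerns the unexposed state. Each mouse had its own Affymetrix MG-U74 array. The labels do not say whether the groups were littermates or were hybridised together, and such differences and the genotype cannot be told apart.

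Glycolysis splits glucose into pyruvate in the cytosol, and lactate dehydrogenase turns pyruvate into lactate while restoring the cofactor that the pathway needs. The pyruvate dehydrogenase complex commits pyruvate to the mitochondrion as acetyl-CoA, which the citric acid cycle oxidises. Epidermal keratinocytes are known to make much lactate even in air, and mouse skin also carries hair follicles, fat and a thin sheet of skeletal muscle with isozymes of its own. In whole skin, fewer cells of a type and less RNA per cell cannot be told apart.

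Signals are MAS5 values in arbitrary units, and differences are log2 signal in knockout minus wild type. On each array the probe sets of the 36 genes were judged against the 40th percentile of signal, and those that reached it in at least 4 arrays were kept. Of 48 probe sets, 6 were control sets and 6 were too dim, which left 36 probe sets of 31 genes, 15 of glycolysis and 16 of the citric acid cycle. Gpi1 and Eno1 had no probe set named here and were not analysed, Gapdh was read by control sets alone, and Aco1 and Idh3b were too dim. On the whole array 7658 probe sets were kept, 4 of which passed a limma adjusted p of 0.05 (0.0522%). The targeted gene Cd1d1 read 58.2, 65, 79.6, 47.6 and 51.1 in knockout 1 to 5, against 112.4, 101.1, 91 and 130 in wild type 1 to 4. The groups did not overlap, which held for 3.21% of all kept probe sets. The difference was -0.86 (SE 0.20) with a limma adjusted p of 0.242, so the targeted gene itself did not pass the threshold. Whether its probes lie in the deleted stretch is not given in the sources used here. The number of decimals in the deposited values differed between arrays (7 in knockout 1 and 2 and wild type 2 to 4, 9 in knockout 3 to 5 and wild type 1), and values within each kind are given for several results.

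Many glycolytic genes are textbook targets of the hypoxia-inducible factors, whose core site is ACGTG or GCGTG, and the palindrome CACGTG contains ACGTG on both strands. To set the letters beside the values, 5 promoters are shown, as the 250 bases before the RefSeq transcript start (GRCm38.p6): Ldha and Pgk1 as glycolytic genes with the core, Tpi1 as a glycolytic gene without it, Idh1 as the member with the smallest p among the 31 genes, and Cs as the entry to the cycle. Capitals mark ACGTG or GCGTG on either strand, and neighbouring matches run together.
Ldha, chr7:46845554-46845803, + strand: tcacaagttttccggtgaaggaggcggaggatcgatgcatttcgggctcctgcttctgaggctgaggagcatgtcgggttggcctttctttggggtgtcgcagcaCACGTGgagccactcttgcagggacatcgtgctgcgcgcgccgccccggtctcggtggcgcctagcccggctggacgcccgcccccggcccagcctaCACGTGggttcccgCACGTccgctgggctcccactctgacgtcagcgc
Pgk1, chrX:106186850-106187099, + strand: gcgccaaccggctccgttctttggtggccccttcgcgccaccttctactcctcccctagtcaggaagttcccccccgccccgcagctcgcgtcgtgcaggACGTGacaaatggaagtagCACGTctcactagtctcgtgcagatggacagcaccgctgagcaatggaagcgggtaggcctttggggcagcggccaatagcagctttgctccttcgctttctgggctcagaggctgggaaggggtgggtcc
Tpi1, chr6:124814159-124814408, − strand: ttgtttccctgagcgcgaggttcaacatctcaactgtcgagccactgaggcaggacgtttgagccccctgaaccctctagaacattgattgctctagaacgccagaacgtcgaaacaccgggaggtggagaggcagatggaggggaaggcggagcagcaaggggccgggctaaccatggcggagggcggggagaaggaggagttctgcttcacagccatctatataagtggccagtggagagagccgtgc
Idh1, chr1:65179143-65179392, − strand: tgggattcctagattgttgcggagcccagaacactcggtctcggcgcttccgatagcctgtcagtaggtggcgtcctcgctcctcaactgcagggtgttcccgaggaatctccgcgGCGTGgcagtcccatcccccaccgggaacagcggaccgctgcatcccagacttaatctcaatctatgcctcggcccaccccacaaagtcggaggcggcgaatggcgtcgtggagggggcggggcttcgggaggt
Cs, chr10:128337477-128337726, + strand: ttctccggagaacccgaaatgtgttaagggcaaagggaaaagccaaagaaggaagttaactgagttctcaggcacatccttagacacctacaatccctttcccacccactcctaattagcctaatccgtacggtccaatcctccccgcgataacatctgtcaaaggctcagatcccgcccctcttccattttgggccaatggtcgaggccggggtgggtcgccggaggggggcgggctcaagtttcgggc
The Ldha stretch held 5 matches, which include both strands of 2 copies of CACGTG. The Pgk1 stretch held 2 matches and that of Idh1 held 1, while those of Tpi1 and Cs held none. The table has a second start for Ldha and for Idh1, whose stretches held 1 match and 0 matches and no CACGTG. Over the 300-base windows of the RefSeq table, which run from 250 bases before to 50 after each start, 22 of 29 windows of the 18 glycolytic genes held ACGTG or GCGTG (75.9%), as did 16 of 23 windows of 17 citric acid cycle genes (69.6%) and 43.8% of all 32851 windows. The windows of both lists were also richer in G and C, with a median of 59.0% for glycolysis and 61.0% for the cycle, against 52.7% over all windows. CACGTG stood in 2 of the 29 glycolytic windows (6.9%), in 3 of the 23 citric acid cycle windows (13.0%) and in 7.15% of all windows. A match describes the letters and is no evidence of binding.

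No member differed between the genotypes past the threshold. Among the 36 probe sets, 0 passed a limma adjusted p of 0.05, beside 0.0522% of all kept probe sets, and 2 had an unadjusted p under 0.05, beside 9.4%. None had groups that did not overlap, beside 3.21%. Taking for each gene its brightest kept probe set gave 31 genes, of which 0 passed (0.0342% of all 5855 genes), 1 had an unadjusted p under 0.05 (8.56% of all genes) and 0 did not overlap (3.11%). The smallest adjusted p over the 36 probe sets was 0.363, at a second probe set of Pkm. The differences of the 31 genes ran from -0.39 for Slc2a1 to 0.39 for Idh1, and 23 lay within 0.2 on either side of 0. The 95% limma intervals of 30 of the 31 genes lay inside a 2-fold change in either direction, the exception being Slc2a1, whose interval reached -1.03. The number of mice limits the precision, and smaller differences in either direction lie inside these intervals.

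**Figure D1:**
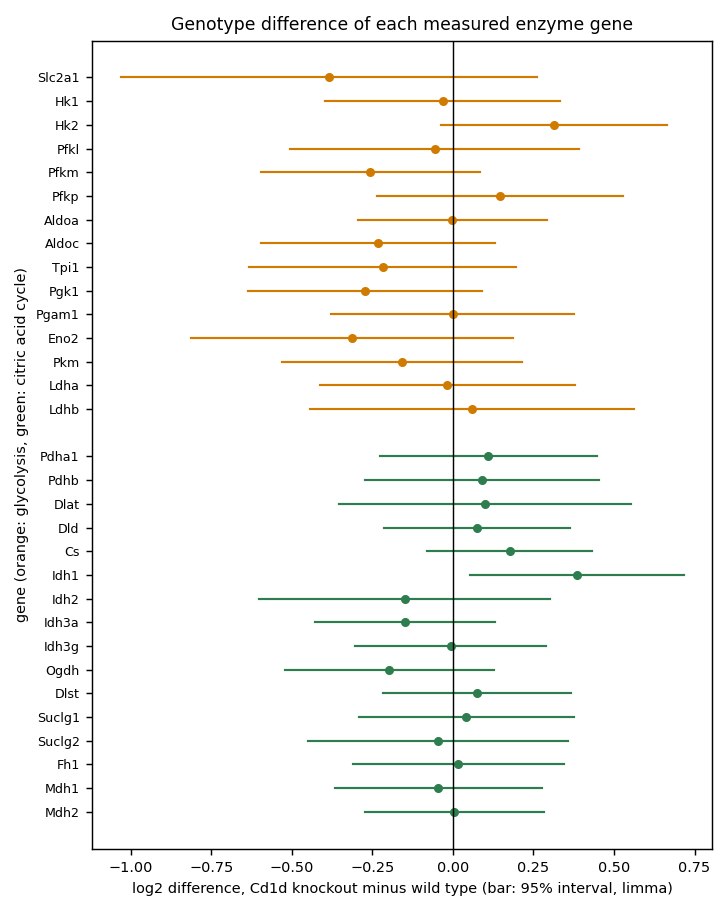
Log2 difference, Cd1d knockout minus wild type, of the 31 measured member genes (points) with 95% intervals from limma (bars); orange marks glycolysis and green the citric acid cycle. The points lie between -0.39 (Slc2a1) and 0.39 (Idh1), and every interval except that of Idh1 crosses 0.

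The glycolytic genes were lower in knockout skin in 12 of 15 cases and higher in 3, with a median difference of -0.057. The citric acid cycle genes were lower in 6 of 16 and higher in 10, with a median of 0.029. This list includes the 4 pyruvate dehydrogenase subunits, all of them higher, and the cytosolic Idh1 (higher) and Mdh1 (lower). Over all 5855 genes 48.7% were lower, and the median was 0.007. Wild type 2 decided the sign of the glycolytic median: without that mouse it was 0.091, and that of the citric acid cycle was 0.12. The citric acid cycle median was -0.025 without wild type 3 and -0.006 without wild type 4. The glycolytic median was -0.22 among the 7-decimal arrays and -0.13 among the 9-decimal arrays.

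Each mouse was then given the median, over the genes of a list, of the deviation of log2 signal from the gene's own mean over the 9 arrays. For glycolysis these medians were -0.14, -0.18, 0.13, 0.09 and -0.12 in knockout 1 to 5, against 0.12, 0.48, -0.17 and -0.11 in wild type 1 to 4. The knockout values lay between the lowest and the highest wild-type mouse except for knockout 2, just below them, and wild type 2 stood above every other mouse. Their means were -0.041 ± 0.143 in knockout mice (SD, n = 5) and 0.080 ± 0.290 in wild-type mice (SD, n = 4), and the wild-type mean without mouse 2 was -0.052. For the citric acid cycle the medians were 0.004, 0.022, 0.019, 0.22 and -0.077 in knockout 1 to 5, against 0.062, 0.19, -0.18 and -0.12 in wild type 1 to 4. Here knockout 4 and wild type 2 were high together, and the means were 0.037 ± 0.108 in knockout mice (SD, n = 5) and -0.012 ± 0.169 in wild-type mice (SD, n = 4).

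Glycolytic and citric acid cycle members were compared within each array by taking the glycolytic median minus the citric acid cycle median. This cancels a brightness factor that all genes of an array share. The gap was -0.14, -0.20, 0.12, -0.13 and -0.038 in knockout 1 to 5, against 0.053, 0.29, 0.016 and 0.012 in wild type 1 to 4. The zero of this scale is set by the centring of each gene on its mean over the 9 mice, so the sign of a gap says nothing of which pathway is the more abundant, and only differences between mice can be read. Knockout 3 was the one knockout mouse inside the wild-type range, and the other 4 lay below it. Above 0.053 that range was set by wild type 2 alone, and knockout 3 lay above wild type 1, 3 and 4. The wild-type mean without mouse 2 was 0.027. The mean gap was -0.078 ± 0.123 in knockout mice (SD, n = 5) and 0.092 ± 0.131 in wild-type mice (SD, n = 4), a difference of -0.17. It was -0.24 among the 7-decimal arrays, -0.16 among the 9-decimal arrays, -0.115 without wild type 2, -0.118 with the hair follicle list as a covariate and -0.10 with the muscle list. This score over chosen genes was not tested.

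**Figure D2:**
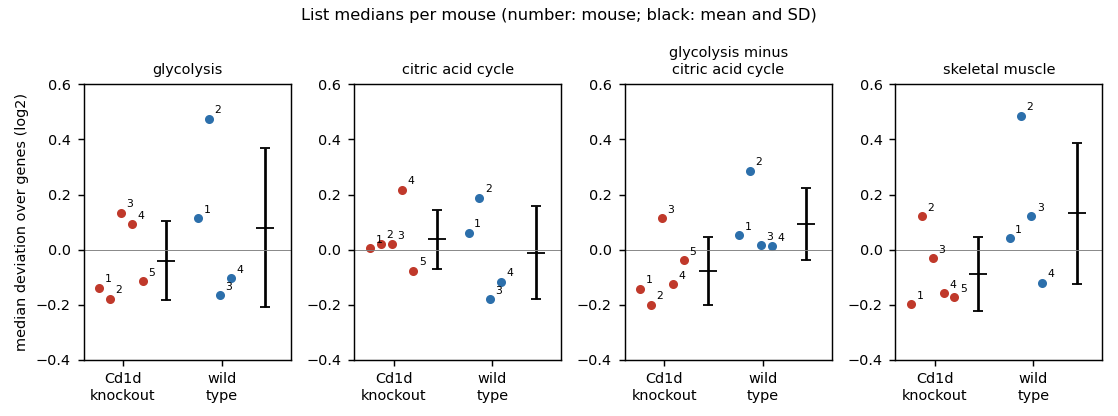
Median deviation from each gene's own mean (log2) per mouse, for 15 glycolytic genes, 16 citric acid cycle genes, their gap and 20 skeletal muscle markers; numbers name the mouse, black bars give mean and SD of each group (n = 5 and n = 4). Wild type 2 is the highest mouse for glycolysis (0.48) and for muscle (0.49). In the gap only knockout 3 lies inside the wild-type range, whose upper end is wild type 2 alone (0.29).

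Wild type 2 carried the highest signal of all 9 mice for 10 of 15 glycolytic genes and for 7 of 16 citric acid cycle genes, beside 15.1% of all genes. Set against the mean of the other 3 wild-type mice, wild type 2 was higher for 14 of 15 glycolytic genes, with a median of 0.56, and for 14 of 16 citric acid cycle genes, with a median of 0.23. Over all genes that mouse was above the others in 43.1%, with a median of -0.077. The array of wild type 2 also had the lowest median natural log signal, at 4.284, although all arrays had nearly the same trimmed mean. Whether this unequal spread of bright and dim signals had a part in the member values was not tested. Some other lists were also higher in wild type 2 than in the other 3. Among related lists described further on, the median was 0.70 for other glycolysis isozymes and transporters (5 of 6 above). It was 0.42 for other citric acid cycle and pyruvate dehydrogenase genes (8 of 11 above). Pentose phosphate genes gave 0.36 (6 of 8 above), and glycogen and glycerol phosphate genes 0.34 (9 of 10 above). The median was 0.41 for fibroblast markers (9 of 11 above) and 0.39 for skeletal muscle markers (17 of 20 above). For adipocyte markers it was 0.24 (11 of 12 above). Not all lists were higher: the median was -0.77 for hair follicle genes (1 of 18 above) and 0.015 for epidermal markers (5 of 10 above). For genes of glycolysis regulation and gluconeogenesis it was -0.15 (4 of 13 above). Wild type 2 was the highest of all 9 mice for 15 of the 20 measured muscle markers, out of 25 listed. The summed muscle signal ran from 52652.3 to 65328.9 in knockout mice, against 57145.9 to 86621 in wild-type mice, with the top value in wild type 2 and no marker at 0. In the genotype comparison 17 of the 20 muscle markers were lower in knockout skin, with a median of -0.20 and none past the threshold. When the muscle list's median per array entered the fit as a covariate, the glycolytic median difference was 0.099 and that of the citric acid cycle 0.15.

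Knockout 4 was the highest mouse for 6 of 16 citric acid cycle genes and 2 of 15 glycolytic genes, beside 21.0% of all genes. The summed signal of 10 measured epidermal markers, out of 15 listed, was 42979.7 in that mouse, against 29789.3 to 32082.3 in the other knockout mice and 30897.3 to 32776.2 in wild-type mice. None of these markers was at 0, and their part in the citric acid cycle values was not tested. The hair follicle list split the knockout group: the summed signal of its 18 measured genes, of 30 listed, was 14736.3, 40769.7 and 32766.5 in knockout 1, 2 and 5, against 2538.7 and 1517.8 in knockout 3 and 4 and 1591.5 to 3907.4 in wild-type mice. Knockout 1, 2 and 5 were the 3 lowest mice for 3 of the 31 members, Slc2a1, Pfkm and Ogdh (9.68%), beside 3.3% of all genes. How often these 3 mice were the highest was not counted. For the member Idh1 they were, at 506.5, 500.8 and 477.7, against 297 to 465.5 in the other mice. Of 10 red cell genes listed, 4 were measured and all were lower in knockout skin, 2 of them past the threshold, with a summed signal of 1355.9 to 2042.7 in knockout mice, against 3361.9 to 5093.5 in wild-type mice. Of 14 macrophage and dendritic cell genes 13 were measured and all were lower, with none past the threshold and sums of 15571.6 to 20089.1 in knockout mice, against 19852.3 to 23346.4 in wild-type mice. Of 20 genes of cycling cells 15 were measured and all were higher, with none past the threshold and sums of 2188.9 to 4717.7 in knockout mice, against 1790 to 3056.8 in wild-type mice. No marker of these lists was at 0, and their part in the member values was not tested. The ratio of the 3′ to the 5′ control probe set, a sign of RNA integrity, was 1.048 ± 0.056 in knockout mice and 1.155 ± 0.045 in wild-type mice for Actb (SD, n = 5 and 4), and 0.892 ± 0.014 in knockout mice and 0.925 ± 0.074 in wild-type mice for Gapdh. Its part in the member values was not tested.

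**Figure D3:**
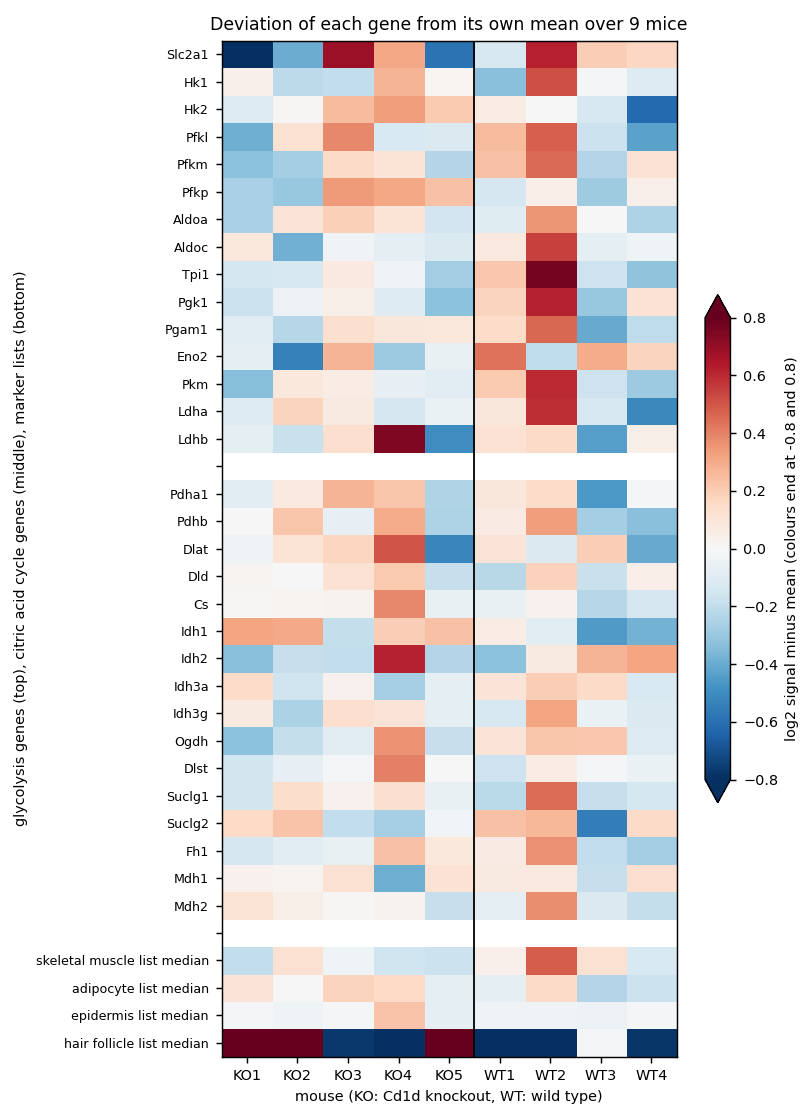
Deviation of log2 signal from the gene's own mean over 9 mice for 15 glycolytic genes (top), 16 citric acid cycle genes (middle) and the medians of 4 marker lists (bottom), with colours ending at -0.8 and 0.8; columns are knockout 1 to 5, then wild type 1 to 4. The column of wild type 2 is red for most glycolytic genes, with Tpi1 the darkest, and the hair follicle row is dark red in knockout 1, 2 and 5.

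Slc2a1 encodes GLUT1, a glucose transporter of keratinocytes. Its signal was 77.8, 106.9, 226, 174.4 and 93.6 in knockout 1 to 5, against 129.1, 216.5, 161.6 and 158.1 in wild type 1 to 4. The knockout mice spanned 2.9-fold and enclosed the whole wild-type range. The log2 difference was -0.39 (SE 0.30, limma adjusted p = 0.721), and the interval of -1.03 to 0.26 was the widest among the brightest probe sets of the 31 genes. With the hair follicle list as a covariate the difference was 0.006. It was -0.96 among the 7-decimal arrays (limma adjusted p = 0.249), 0.26 among the 9-decimal arrays, which hold knockout 3 to 5 and wild type 1, -0.60 without knockout 3 and -0.21 without knockout 1. The red cell markers listed above also differed between the genotypes, and their part in the Slc2a1 signal was not tested.

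Hexokinase phosphorylates glucose and so holds it in the cell. Hk2, the insulin-responsive and inducible form, read 420.9, 457.4, 540.6, 573.7 and 525.5 in knockout 1 to 5, against 473, 452.7, 416.1 and 294.7 in wild type 1 to 4. Knockout 3, 4 and 5 stood above every wild-type mouse, while knockout 1 and 2 lay among them. The difference of 0.31 (SE 0.16) had an unadjusted p of 0.0758 and a limma adjusted p of 0.576, it was the highest of the glycolytic list, and it was 0.16 without wild type 4. Hk1, the form found in most tissues, averaged 2480 ± 348 in knockout mice (SD, n = 5) and 2579 ± 686 in wild-type mice (SD, n = 4), a difference of -0.032.

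Phosphofructokinase sets the pace of glycolysis and exists as muscle (Pfkm), liver (Pfkl) and platelet (Pfkp) subunits. Pfkm read 1710.9, 1778.5, 2386, 2317.2 and 1825.9 in knockout 1 to 5, against 2523.2, 2935.7, 1828.1 and 2323.2 in wild type 1 to 4. Knockout 1, 2 and 5 were the 3 lowest mice with wild type 3 just above them, and knockout 3 and 4 lay among the wild-type mice. The difference was -0.26 (SE 0.16, limma adjusted p = 0.647), with -0.38 without wild type 3, -0.15 without wild type 2 and -0.063 with the hair follicle list as a covariate. Pfkl averaged 488.6 ± 101 in knockout mice and 514.8 ± 143 in wild-type mice, and Pfkp averaged 162.1 ± 34 in knockout mice and 144.5 ± 15.7 in wild-type mice (SD, n = 5 and 4). Their differences were -0.057 and 0.15, and a second Pfkp probe set gave -0.057.

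Aldolase and triose phosphate isomerase split and interconvert the sugar phosphates. Aldoa, the muscle and general aldolase, averaged 8732 ± 1140 in knockout mice and 8792 ± 1630 in wild-type mice (SD, n = 5 and 4), a difference of -0.003, while another of its probe sets gave -0.22. Aldoc, the brain form, read 126.6, 91.2, 116.9, 113.3 and 110.1 in knockout 1 to 5, against 126.1, 174.4, 112.8 and 116.6 in wild type 1 to 4, with wild type 2 alone above the rest (difference -0.23, SE 0.17, and -0.093 without wild type 2). Tpi1 read 2912.6, 2937, 3387.1, 3145.1 and 2647.4 in knockout 1 to 5, against 3714.4, 5440.2, 2853.6 and 2558.6 in wild type 1 to 4. The knockout mice stayed within a narrow band, wild type 3 and 4 lay in it or just below, and wild type 1 and 2 lay above it. The difference was -0.22 (SE 0.19, limma adjusted p = 0.767), it was -0.004 without wild type 2, and it was 0.070 with the muscle list as a covariate.

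The payoff steps begin with glyceraldehyde-3-phosphate dehydrogenase, Gapdh, read here by control probe sets at 3 points along its transcript. These were tested in a fit, added after the data were seen, that kept the control sets for mouse genes. The 3′ set averaged 7803 ± 630 in knockout mice (SD, n = 5) and 8246 ± 1507 in wild-type mice (SD, n = 4), a difference of -0.066. The middle and 5′ sets gave -0.094 and -0.016, and the lowest limma adjusted p of the 3 was 0.847. Wild type 2 was the highest mouse for all 3 sets.

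Pgk1, which makes the first ATP of the payoff phase, read 1028.5, 1122, 1196, 1076.9 and 921.3 in knockout 1 to 5, against 1313.2, 1774.3, 937.3 and 1256.7 in wild type 1 to 4. All knockout mice lay below wild type 1, 2 and 4, and wild type 3 lay near their lower end. The difference was -0.27 (SE 0.17, limma adjusted p = 0.645) and was -0.12 without wild type 2 and -0.43 without wild type 3. Pgam1, phosphoglycerate mutase, averaged 503.9 ± 50.8 in knockout mice and 515.7 ± 138 in wild-type mice (SD, n = 5 and 4), a difference of -0.001. Eno2, the neuronal enolase, was near the lower limit of the kept signals, at 51.6 ± 10.8 in knockout mice and 63.8 ± 11.4 in wild-type mice (difference -0.31, SE 0.23).

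Pyruvate kinase, Pkm, completes glycolysis and was read by 2 kept probe sets. The brighter one averaged 3768 ± 426 in knockout mice (SD, n = 5) and 4305 ± 1240 in wild-type mice (SD, n = 4), a difference of -0.16 (SE 0.17). The second was picked out after its values were seen. It read 796.3, 1019.3, 1261, 976.4 and 653.4 in knockout 1 to 5, against 1879.5, 2398.7, 1676.5 and 1014.8 in wild type 1 to 4. Wild type 1, 2 and 3 stood above every knockout mouse, and wild type 4 lay among the knockout mice. The difference was -0.86 (SE 0.25, 95% interval -1.39 to -0.32) with an unadjusted p of 0.00456 and a limma adjusted p of 0.363, beside 9.4% of all probe sets with an unadjusted p under 0.05. It was negative in each of the 23 other settings run, from -1.10 to -0.48, the value nearest 0 being that with the muscle list as a covariate. The name of this set carries the suffix that Affymetrix gives to probes shared by a sequence family. The kept Aldoa sets and the Gyg set described further on carry it too. The brighter Pkm set did not show a difference of that size.

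Lactate dehydrogenase has an A subunit, Ldha, typical of tissues that make lactate, and a B subunit, Ldhb, typical of tissues that use it. Ldha read 4425.8, 5370.1, 4983.8, 4328.2 and 4575.1 in knockout 1 to 5, against 5062.1, 7144.1, 4350.4 and 3322.2 in wild type 1 to 4. The wild-type mice held both the highest and the lowest of the 9 values, 2.15-fold apart. The difference was -0.018 (SE 0.18, limma adjusted p = 0.988). Ldhb read 200.1, 186, 230.9, 352.3 and 148.8 in knockout 1 to 5, against 227.8, 233.9, 154.9 and 216.9 in wild type 1 to 4. Knockout 4 was the highest and knockout 5 the lowest. Its difference of 0.058 (SE 0.23, limma adjusted p = 0.961) was -0.12 without knockout 4 and 0.41 with the hair follicle list as a covariate (limma adjusted p = 0.415).

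**Figure D4:**
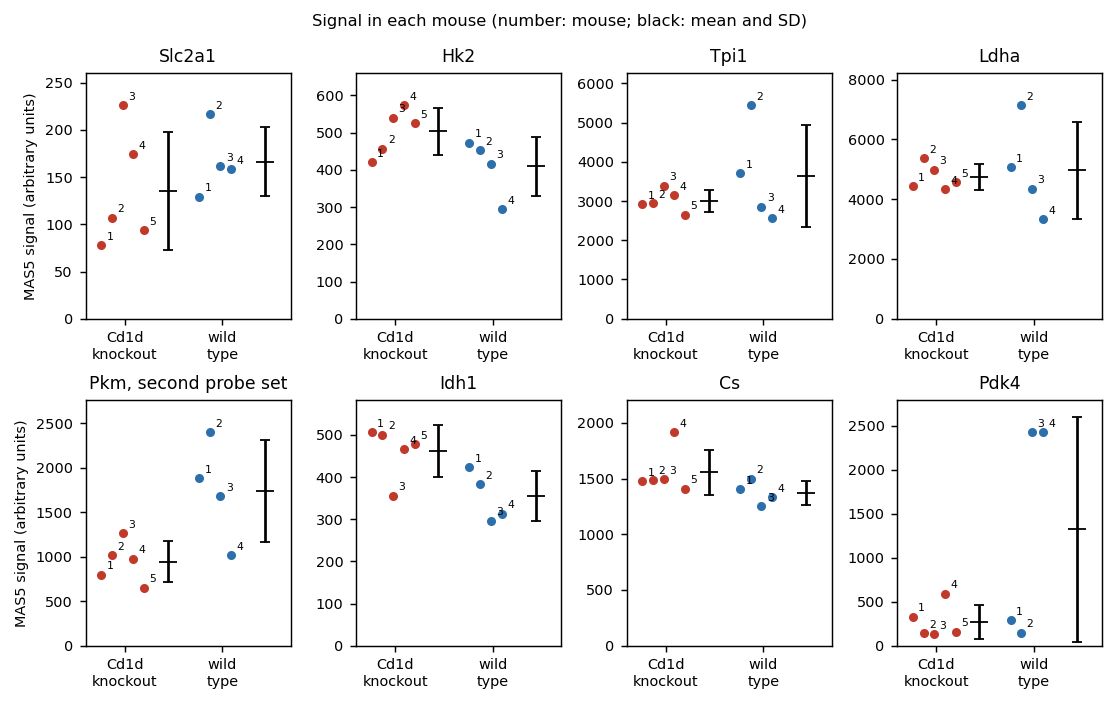
MAS5 signal in arbitrary units, each axis starting at 0, of 8 probe sets in every mouse (numbers) with group mean and SD (black); Pdk4 is a pyruvate dehydrogenase kinase outside the 36 members. The second Pkm set puts 3 of 4 wild-type mice above all knockout mice, Idh1 puts 4 of 5 knockout mice above all wild-type mice, and wild type 2 is the top point for Tpi1 and Ldha.

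The pyruvate dehydrogenase complex joins E1 (Pdha1 and Pdhb), E2 (Dlat) and E3 (Dld) subunits. Pdha1 averaged 1347 ± 197 in knockout mice and 1253 ± 219 in wild-type mice, and Pdhb 775.8 ± 117 in knockout mice and 734.7 ± 163 in wild-type mice (SD, n = 5 and 4), differences of 0.11 and 0.091. Dld, which also serves the 2-oxoglutarate dehydrogenase complex, gave 0.075 (SE 0.13). All 4 subunits were higher in knockout skin by their brightest probe sets and none passed, with limma adjusted p values of 0.851 to 0.913. Dlat read 121, 134, 139.9, 175.7 and 86.4 in knockout 1 to 5, against 133.2, 114.6, 142.2 and 93.8 in wild type 1 to 4. The knockout mice enclosed the wild-type range, the difference was 0.10 (SE 0.21), and a second Dlat probe set went the other way, at -0.28.

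Citrate synthase, Cs, brings acetyl-CoA into the cycle. It read 1474.4, 1488.8, 1496.8, 1916.7 and 1409.4 in knockout 1 to 5, against 1405.6, 1500.7, 1249.9 and 1334.3 in wild type 1 to 4. Knockout 4 stood well above the other mice, and the remaining knockout values lay in the upper part of the wild-type range. The difference was 0.18 (SE 0.12, limma adjusted p = 0.674) and was 0.099 without knockout 4 and 0.29 with the hair follicle list as a covariate. The cytosolic aconitase Aco1 was too dim to test, at 18.2 to 40.3 in knockout mice and 10.5 to 33 in wild-type mice.

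The isocitrate dehydrogenases gave both the largest positive difference of the 31 members and the only unadjusted p under 0.05 among them. Idh1, the cytosolic and peroxisomal enzyme that makes NADPH, read 506.5, 500.8, 356.1, 465.5 and 477.7 in knockout 1 to 5, against 422.8, 383.6, 297 and 313.2 in wild type 1 to 4. Every knockout mouse except knockout 3 stood above every wild-type mouse. The mean was 461.3 ± 61.1 in knockout mice (SD, n = 5) and 354.1 ± 59.2 in wild-type mice (SD, n = 4), a difference of 0.39 (SE 0.15, 95% interval 0.052 to 0.72), with an unadjusted p of 0.027 and a limma adjusted p of 0.471. It was 0.61 among the 7-decimal arrays, 0.022 among the 9-decimal arrays and 0.39 with the number of decimals as a block. With the hair follicle list as a covariate the difference was 0.33 (limma adjusted p = 0.49). The 3 highest Idh1 signals were those of knockout 1, 2 and 5, the mice with the high hair follicle sums.

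Idh2, the mitochondrial NADPH-making enzyme, read 380.6, 421.3, 418.7, 733.6 and 407 in knockout 1 to 5, against 381, 503.5, 578.7 and 597.4 in wild type 1 to 4. Knockout 4 was the highest of all mice, and the other 4 knockout mice lay below wild type 2, 3 and 4. The difference was -0.15 (SE 0.21, limma adjusted p = 0.849), with -0.48 among the 7-decimal arrays, 0.39 among the 9-decimal arrays, which hold knockout 4, and -0.32 without knockout 4. The NAD-dependent enzyme is built from Idh3a, Idh3b and Idh3g. Idh3a read 356.6, 288.7, 330.3, 267.9 and 305.1 in knockout 1 to 5, against 346.6, 369.6, 358.2 and 296.9 in wild type 1 to 4, with knockout and wild-type values interleaved (difference -0.15, SE 0.13). Idh3g gave -0.007 (SE 0.14). Idh3b was too dim: 15.5 to 36.7 in knockout mice and 5.6 to 15 in wild-type mice, without overlap, but all under the lowest 40th percentile of any array, a signal of 43.4.

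The 2-oxoglutarate dehydrogenase complex, built like that of pyruvate, was read through its E1 (Ogdh) and E2 (Dlst) subunits. Ogdh read 735.1, 810.5, 870.3, 1183.9 and 813.2 in knockout 1 to 5, against 994.7, 1077.3, 1076 and 858.2 in wild type 1 to 4. Knockout 4 was the highest mouse and knockout 1, 2 and 5 were the 3 lowest. The difference was -0.20 (SE 0.15, limma adjusted p = 0.72), the most negative of the citric acid cycle list, with -0.31 without knockout 4, -0.37 among the 7-decimal arrays and -0.077 among the 9-decimal arrays. Dlst averaged 408.7 ± 65.3 in knockout mice and 384.8 ± 24.7 in wild-type mice (SD, n = 5 and 4), a difference of 0.076.

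Suclg1 and Suclg2, subunits of succinyl-CoA ligase, gave 0.042 (SE 0.15) and -0.046 (SE 0.19). Fh1, fumarase, averaged 586.7 ± 62.4 in knockout mice and 586.3 ± 122 in wild-type mice (SD, n = 5 and 4), a difference of 0.017. The malate dehydrogenases gave -0.045 for the cytosolic Mdh1 and 0.004 for the mitochondrial Mdh2, with limma adjusted p values of 0.952 and 0.996. Mdh2 averaged 2190 ± 164 in knockout mice and 2206 ± 415 in wild-type mice (SD, n = 5 and 4), and its interval of -0.27 to 0.28 allows changes of that size in either direction.

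The ratio of 2 isozymes or partner subunits within an array does not depend on how the array was scaled. Of 11 pairs listed, 9 could be measured and 0 differed after Benjamini-Hochberg adjustment, by an exact two-sided permutation test over all ways to divide the 9 arrays into 5 and 4. The smallest p that this test can give is 0.00794, and over 9 pairs a single pair can then not go below an adjusted 0.0715, so no lone pair could have passed 0.05. Pfkm over Pfkp, given as the log2 ratio minus its mean over the 9 mice, was -0.068, 0.029, -0.19, -0.20 and -0.47 in knockout 1 to 5, against 0.37, 0.40, 0.054 and 0.071 in wild type 1 to 4. The groups did not overlap, although knockout 2 and wild type 3 lay close together. The difference was -0.40 (exact p = 0.0159, adjusted 0.143), and it was -0.20 among the 7-decimal arrays and -0.65 among the 9-decimal arrays. With the mean of a gene's probe sets it was -0.30 (exact p = 0.119, adjusted 0.477). Idh1 over Idh2 differed by 0.54 (exact p = 0.143, adjusted 0.477) and Hk2 over Hk1 by 0.35 (exact p = 0.159, adjusted 0.477), both with overlapping groups. Idh1 over Idh2 was 1.09 among the 7-decimal arrays and -0.37 among the 9-decimal arrays. The other 6 pairs, among them Ldha over Ldhb at -0.076, had exact p values of 0.23 to 0.865.

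**Figure D5:**
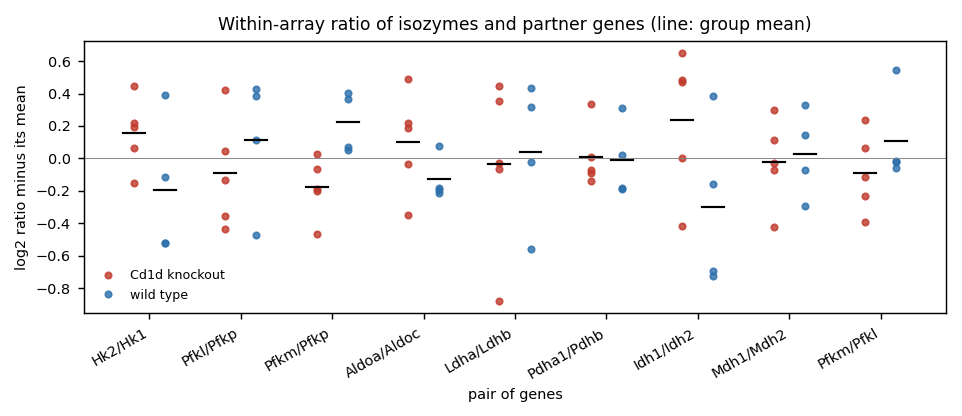
Log2 ratio of 9 pairs of member genes within each array, centred on the mean over 9 mice; red points are the 5 knockout mice, blue points the 4 wild-type mice, black lines the group means. Pfkm over Pfkp is the one pair whose groups do not overlap, with means of -0.18 in knockout mice and 0.22 in wild-type mice.

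Genes that feed, drain or regulate the pathways were read in 5 further lists. Limma called 0 genes in each of them, beside 0.0342% of all genes. An unadjusted limma p under 0.05 was reached by 1 gene in each of 3 lists and by 0 in the rest, beside 8.56% of all genes. Of 13 measured genes of 21 listed for regulation and gluconeogenesis, 8 were lower and 5 higher in knockout skin, with a median of -0.026. Pdk3, a kinase that switches the pyruvate dehydrogenase complex off, read 324.7, 355.1, 268.4, 291 and 339.2 in knockout 1 to 5, against 259, 269.8, 239.7 and 235.4 in wild type 1 to 4. Knockout 3 was the one knockout mouse inside the wild-type range (difference 0.33, SE 0.12, limma adjusted p = 0.461). The 3 highest mice were knockout 1, 2 and 5, those with the high hair follicle sums. Pdk4, the kinase known to be induced by fasting, read 331.4, 144.4, 130.6, 588.8 and 157.3 in knockout 1 to 5, against 286.8, 149.6, 2427.3 and 2424.6 in wild type 1 to 4. Wild type 3 and 4 stood apart from all other mice, and wild type 1 and 2 lay among the knockout mice (difference -1.66, SE 0.81, limma adjusted p = 0.561). Pck2, the mitochondrial form of the gluconeogenic enzyme, and Hif1a, a hypoxia-inducible factor subunit, gave -0.34 and 0.19.

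The other citric acid cycle, transport and pyruvate dehydrogenase genes were lower in 10 of 11 measured cases of 20 listed, with a median of -0.081 and differences of -0.21 to 0.024. Succinate dehydrogenase, absent from the 36 members, gave -0.081, -0.029, -0.057 and 0.024 for Sdha, Sdhb, Sdhc and Sdhd. The pentose phosphate genes, which branch from glucose 6-phosphate, were higher in 7 of 8 measured cases of 10 listed, with a median of 0.14. Rpe, ribulose phosphate epimerase, gave 0.62 (SE 0.25, limma adjusted p = 0.492) at 60.4 ± 12.5 in knockout mice and 39.4 ± 9.27 in wild-type mice (SD, n = 5 and 4), a dim probe set. Its levels straddle the limit of the filter.

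Glycogen and glycerol phosphate genes were lower in 8 of 10 measured cases of 14 listed, with a median of -0.26. Gyg, glycogenin, the primer of glycogen synthesis, read 124.4, 133.8, 147.7, 116.2 and 106.7 in knockout 1 to 5, against 155.5, 183.3, 158.7 and 155.6 in wild type 1 to 4. The groups did not overlap, which held for no other gene of these further lists and for 3.11% of all genes. The difference was -0.38 (SE 0.14, limma adjusted p = 0.435). Gys1, muscle glycogen synthase, Pygm, muscle glycogen phosphorylase, and Pgm1, phosphoglucomutase, gave -0.29, -0.29 and -0.33, and wild type 2 was the highest mouse for all 4 of these genes. Further isozymes and transporters were measured for 6 of 16 listed genes, with 4 lower, 2 higher and a median of -0.14, among them the muscle enolase Eno3 at -0.25 (SE 0.17). Pgam2, the muscle mutase, read 2374.4 in wild type 2, against 476.6 to 1203.8 in the other wild-type mice and 898.1 to 1495.8 in knockout mice.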

How the data were processed

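RNA of whole skin from 9 mice was read on 1 array each. Per the labels, signals were computed by the authors in Microarray Suite 5.0 (MAS5), and the text on further steps ends mid-sentence. The scale of the deposited values, a natural log, was settled from the numbers: the exponential of 100% of them is a multiple of 0.1, to within 0.001. The 2% trimmed mean signal was 200.11 to 200.13 in every array, so the arrays shared that mean. Their distributions were not equal. The median natural log signal was lowest in wild type 2, at 4.284, against 4.371 (knockout 4) to 4.467 (knockout 1) in the other mice. For the fits the authors' natural log values were rescaled to log2 without further normalisation.

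Of 12488 probe sets, 66 were controls and 1 value was missing. In the platform annotation 10833 had 1 gene, 396 several and 1193 none, and 10817 of the first matched the gene table of GRCm38.p6, which gave promoters and chromosomes. Probe sets at or above the 40th percentile in at least 4 arrays were kept (7658, and 5855 genes by the brightest probe set). Dim MAS5 signals are imprecise, and detection calls were not used. Genotypes were compared in R 4.3.3 with limma 3.58.1 (lmFit, eBayes with trend) by two-sided tests, adjusted by Benjamini-Hochberg over all kept probe sets. The procedure was tested on simulated data. Members and lists were chosen with earlier results of these data known, so lists are described by counts and medians without a test. Values of every mouse are given for members with p under 0.05 or no overlap, the 4 smallest p and the 3 largest SD per list, and up to 4 genes by p per further list are named. Ldha, the second Pkm set, Gapdh, the dim probe sets, Idh3b among them, the succinate dehydrogenase genes and Pgam2 were added after their values were seen. Alternatives were pseudocounts, filters, other normalisation, weights, covariates, blocks, subsets by decimals, left-out mice and control sets kept.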

Additional observations from a re-analysis of the deposited data

Results flagged for a closer look

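In 8 of 68 groups of values checked (11.8%), 1 mouse lay far from the others of its genotype relative to the group's range. Chance alone would give about 1 in 20 if the groups were independent, but they come from the same arrays. Knockout 4 was that mouse for Cs at 1916.7, Idh2 at 733.6 and Dlst at 522.7, high each time, and for Mdh1 at 108.4, low. Knockout 3 was it for Idh1 at 356.1, low. Wild type 2 was it for Idh3g at 618.1, for Suclg1 at 706.2 and for the gap between the glycolytic and citric acid cycle medians at 0.287, high each time. All 7 genes belong to the citric acid cycle list. Over all 5855 genes, knockout 4 was the highest mouse for 21.0% and the lowest for 19.0%. Wild type 2 was the highest for 15.1% of them and the lowest for 21.9%. No share of flagged groups over all genes is given, and whether the count is particular to the members was not tested.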

How the results depend on the processing

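No member probe set passed in any of the 24 other settings, and neither did any of the 13 genes that the naming rule gives in full. The limits are the 4 and 5 mice per group, dim probe sets without detection calls, and the weight of wild type 2. The glycolytic median ran from -0.216 to 0.099 and was above 0 with either tissue covariate and without wild type 2, the citric acid cycle median from -0.025 to 0.146, and their gap from -0.241 to -0.1. The control sets kept were a setting added after the data were seen. The labels' replicate numbers did not pair the mice (correlations of same-numbered mice 0.106, -0.012, -0.046 and 0.019), and with the replicate block 1 probe set passed on the whole array, where 4 passed without it.

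Over the whole array, 9 probe sets passed with array weights, 1 with the hair follicle covariate, 7 with pseudocount 64, 10 within the 7-decimal arrays, 0 within the 9-decimal arrays and 4 to 8 with 1 mouse left out, the count being 7 without knockout 2 or 3 and 8 without knockout 4. Signs turned in these cases, and the cause was not tested. With array weights Ldhb was -0.035 and Dlat -0.025. Ldhb was -0.022 with decimals as a block and -0.043 within the 7-decimal arrays, where Pfkl over Pfkp was 0.121, Ldha over Ldhb 0.099 and Pdha1 over Pdhb -0.096. Within the 9-decimal arrays Slc2a1 was 0.259, Dlat -0.051, Idh2 0.392, Hk2 over Hk1 -0.155 and Idh1 over Idh2 -0.37. With the hair follicle covariate Slc2a1 was 0.006 and Idh2 0.032, with the muscle covariate Tpi1 was 0.07, and with the mean of a gene's probe sets Dlat was -0.089. With 1 mouse left out, Ldhb ran from -0.121 to 0.19, Dlat from -0.016 to 0.242, Ldha over Ldhb from -0.277 to 0.134, Pdha1 over Pdhb from -0.064 to 0.126 and Mdh1 over Mdh2 from -0.155 to 0.052.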

Other observations

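Pck1, the cytosolic gluconeogenic enzyme, which fasting is also known to induce, was looked at after Pdk4 had been seen. It read 120.3, 139.7, 82, 175.5 and 181.8 in knockout 1 to 5, against 72.8, 108.6, 269.8 and 326.6 in wild type 1 to 4. Wild type 3 and 4, which had the 2 highest Pdk4 signals, also had the 2 highest Pck1 signals of the 9 mice. Other gluconeogenic genes differed in this. G6pc was highest in these 2 mice, at 123.1 and 127.7 against 65.6 to 121.7 in the rest. Pcx was lowest in them, at 80.2 and 73 against 95.3 to 315.9. For Fbp2 and Pck2 they were not the 2 highest mice. The glycolytic medians of wild type 3 and 4 were -0.166 and -0.105 and their citric acid cycle medians -0.181 and -0.117. Whether feeding had a part in any of these values was not tested.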
